A study of Mus musculus with 6 samples.

Results

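The proteasome subunit and assembly factor genes were followed in mouse T helper cells exposed in culture to fine airborne particles (PM2.5) or to buffer (PBS). Members were the genes of the deposited expression table whose symbol starts with Psm, a letter from a to g and a number, without the interferon-inducible catalytic subunits Psmb8, Psmb9 and Psmb10 and without names marked as pseudogenes. This gave 47 of the 34745 genes in the table, of which 45 had enough counts to be tested. Splenic naive CD4 T cells of C57BL/6 mice (female, aged 6 weeks) were activated on plate-bound antibodies to CD3 and CD28. For 4 days they were held with IL-6 (20 ng/ml), IL-23 (10 ng/ml), TGF-beta (2 ng/ml), IL-2 (5 ng/ml) and blocking antibodies to IFN-gamma and IL-4 (5 µg/ml each), a mixture that drives the IL-17 producing Th17 fate, and both groups received it. The PM2.5 group was given a suspension of airborne particles at 100 µg/ml from 6 h of stimulation, and the control group was given PBS. Each group holds 3 libraries, and the labels do not say whether these came from separate mice or cultures, so the p-values reflect only how much these libraries vary, which may be technical.

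The 26S proteasome degrades proteins that carry ubiquitin chains. Its 20S core is a barrel of alpha rings that gate the entry and beta rings that hold the peptidase sites, and its 19S regulatory particle has a base of ATPases that unfold the substrate and a lid that removes ubiquitin. Dedicated chaperones build each particle, and the PA28 and PA200 activators can cap the core in place of the regulatory particle. In activated T cells the proteasome clears regulatory and misfolded proteins, and interferon exchanges the standard catalytic subunits for inducible ones that favour the production of antigenic peptides.

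Library totals ran from 19511561 to 22353131 counts in the control and from 25397965 to 27215853 in the PM2.5 group, so every PM2.5 library was deeper. The members together held 0.547 to 0.554% of the counts of a control library and 0.570 to 0.576% of those of a PM2.5 library. All 6 T cell markers listed were present, with a summed level of 2314 to 2340 CPM (the count per 1000000 counts of the library) in the control and 1822 to 1852 CPM in the PM2.5 group; 5 of the 6 were lower, and Cd28 was higher (454 against 686 CPM, log2 fold change 0.59). Markers of other cells were low and mostly lower with PM2.5: B cell genes summed to 1.03 to 1.70 against 0.236 to 0.441 CPM, macrophage genes to 0.761 to 0.858 against 0.354 to 0.689 CPM, neutrophil genes to 5.28 to 6.27 against 0.551 to 0.689 CPM, and dendritic cell genes to 0.948 to 1.30 against 2.56 to 3.50 CPM. Lists that T cells can share went from 34.9 to 43.3 down to 7.66 to 8.49 CPM (NK cells), from 57.5 to 59.7 down to 25.5 to 29.2 CPM (CD8 and gamma-delta T cells), from 81.8 to 87.3 down to 47.0 to 49.7 CPM (stroma and endothelium) and from 0 to 0.135 down to 0 CPM (erythroid cells). Some markers went against their list's sum: in mean TMM-scaled CPM, Eomes of the NK list went from 0.0753 to 0.972, Cd8b1 of the CD8 list from 4.16 to 6.09, and Itgax of the dendritic list from 0.533 to 0.234 while Zbtb46 went from 0.455 to 2.68. Cd14 of the macrophage list went from 0.164 to 0.351 CPM, on 1 to 11 counts per library, and was not tested. Klrd1 made up most of the NK sum (38.4 against 7.11 CPM) and Ly6g nearly all of the neutrophil sum (5.53 against 0.624 CPM). Ncr1, Ms4a1, Lyz2, S100a8, S100a9, Elane and Siglech had 0 counts in all 6 libraries. Their part in the results was not tested, and in such bulk samples fewer cells of a type and less RNA per cell cannot be told apart.

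Proteasome genes moved little compared with the transcriptome as a whole. Of the 45 members tested, 24 (53.3%) passed the threshold of 0.05 on the Benjamini-Hochberg adjusted p (edgeR, quasi-likelihood, adjusted over all genes), against 70.6% of the 12967 genes tested and 74.6% of those in the members' range of CPM. They split into 17 (37.8%) that rose with PM2.5 and 7 (15.6%) that fell, against 35.2% and 35.3% of all genes. The median size of change was 0.15 on the log2 scale for the members and 0.43 for all genes tested, and 2 members (Psme2 and Psmc6) passed with a change of at least 1.5-fold and none of at least 2-fold, against 35.6% and 18.9% of all genes. The largest rises were those of the activator genes Psme2 and Psme1 and of the base ATPase gene Psmc6, and the falls with the smallest p were those of the alpha ring genes Psma1 and Psma2.

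**Figure D1:**
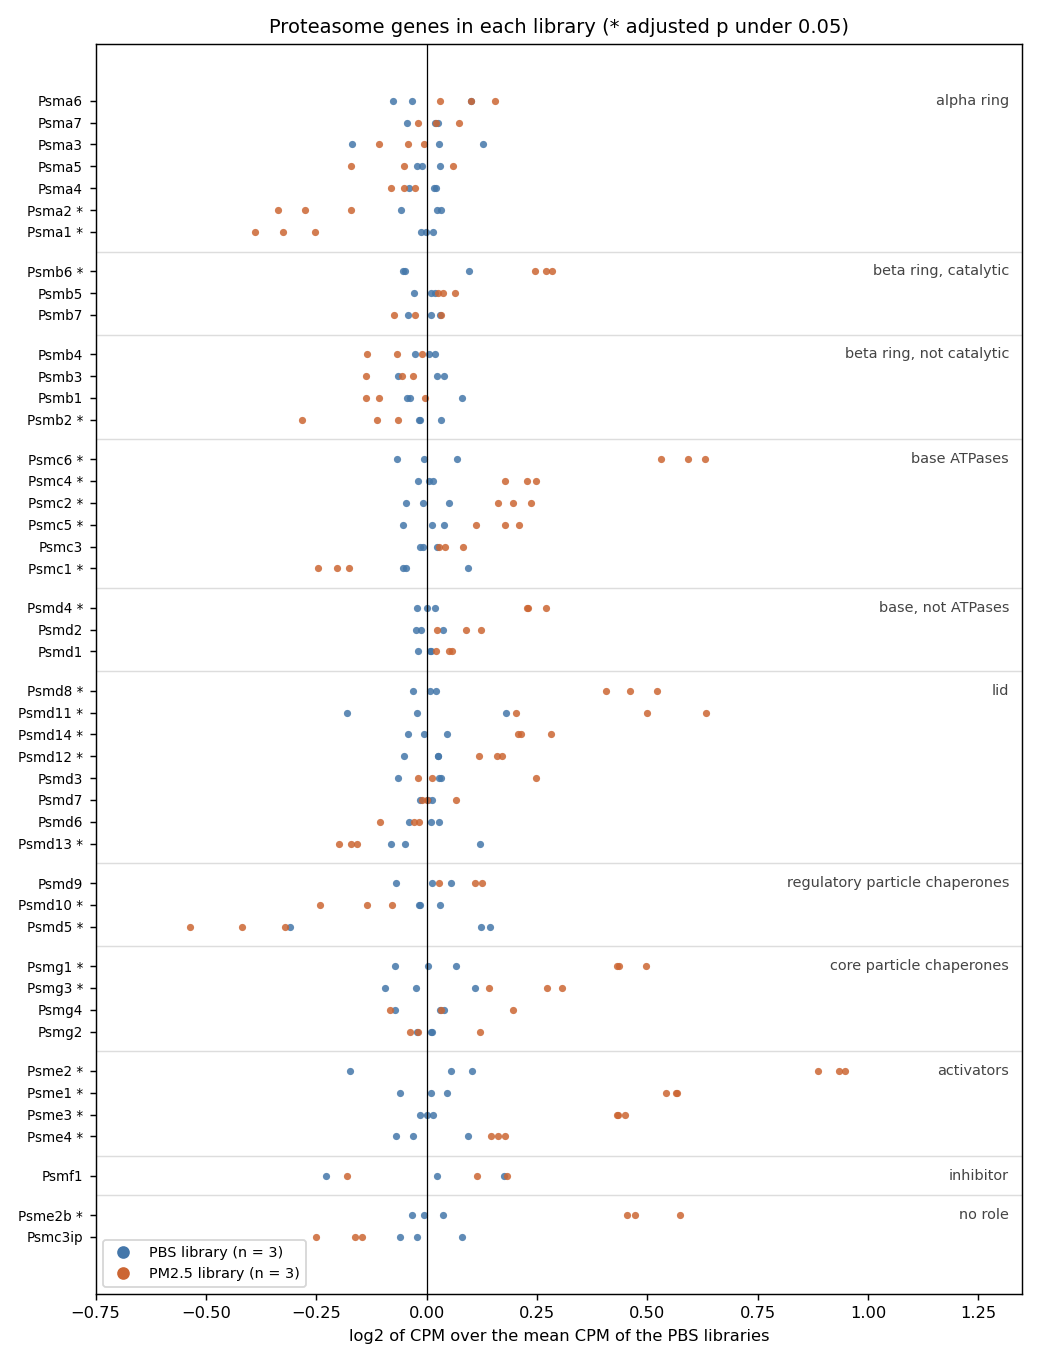
Level of each of the 45 tested members in each library, as log2 of CPM over the mean of the 3 control libraries (x axis), with genes in rows grouped by their place in the proteasome. Blue points are PBS libraries, orange points PM2.5 libraries, and an asterisk marks an adjusted p under 0.05; the activator genes lie to the right of 0 in every PM2.5 library, the alpha ring genes Psma1 and Psma2 to the left.

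**Figure D2:**
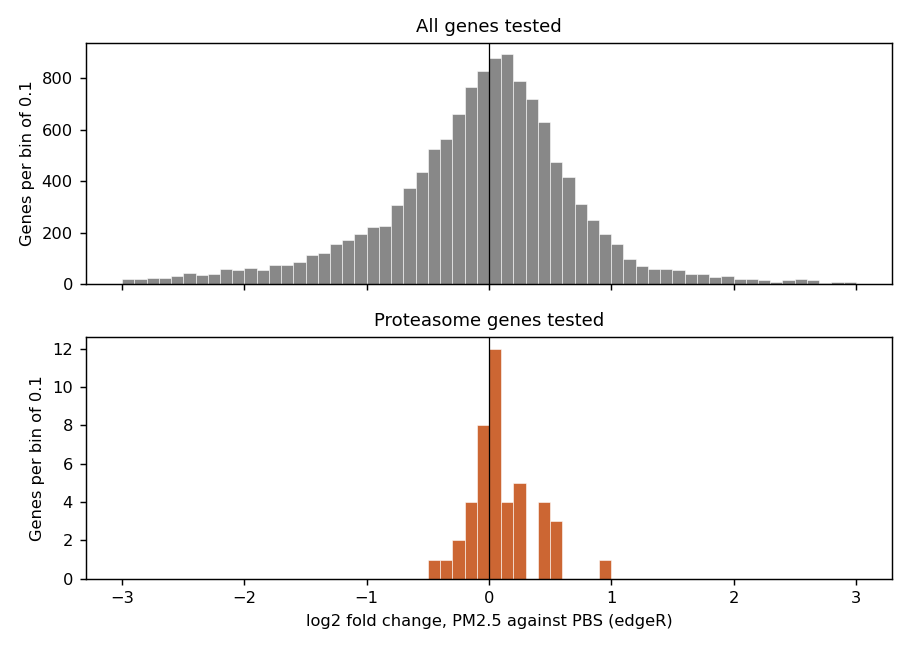
Histograms of the log2 fold change, PM2.5 against PBS, for all 12967 genes tested (top) and for the 45 proteasome genes (bottom), in bins of 0.1; 245 genes beyond 3 in size are not drawn. The proteasome genes occupy the middle of the wide distribution, with 4 of 45 beyond 0.5 in size (8.89%) against 44.0% of all genes.

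The split between higher and lower calls depends on how libraries are scaled, and with TMM also on which genes are kept for the scaling. It was 17 to 7 with TMM, which assumes that most genes do not change, 14 to 13 with library totals (70.4% of all genes called) and 11 to 17 with upper-quartile scaling (71.1% called). These 2 settings moved the median of all genes by -0.06 and -0.11. The median over the members was 0.05 with TMM, beside -0.01 over all genes tested, and turned to -0.012 and -0.059 under these 2 scalings. A difference between groups of genes is unaffected by scaling, which shifts every gene alike. The median log2 fold change was 0.15 for the 17 genes of the 19S regulatory particle with a Psm name and -0.05 for the 14 genes of the common 20S core. This gap of 0.20 lay between 0.18 and 0.21 over the 15 alternatives, those of scaling being alike by construction. The lid gene Shfm1 and the ubiquitin receptor gene Adrm1 carry no Psm name and are given apart. The grouping into these 2 particles was made after the values were seen and has no test of its own. In summed CPM, the regulatory particle genes exceeded the core genes by ratios of 1.81, 1.78 and 1.77 in the control libraries and 2.06, 2.07 and 2.13 in the PM2.5 libraries, so the groups did not overlap. Genes with large changes in CPM weigh most in such sums, as Psmd8 (mean 284 against 391 CPM), Psmc6 (138 against 208) and Psma1 (144 against 116). With TMM, 9 of 17 regulatory genes were called higher and 2 lower, and 1 of 14 core genes higher and 3 lower, beside 35.2% and 35.3% of all genes.

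**Figure D3:**
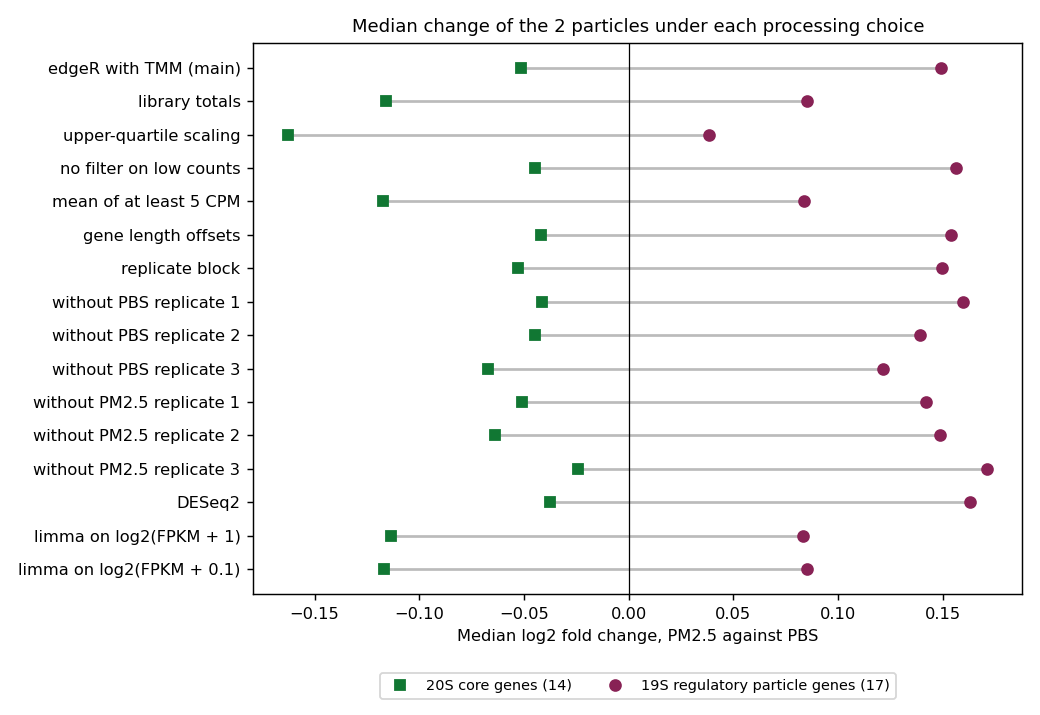
Median log2 fold change of the 14 core genes (green squares) and the 17 regulatory particle genes (purple circles) under each processing choice, in rows. The pair of medians slides along the x axis with the scaling, which by construction leaves the gap between them near 0.20.

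Of the 7 alpha ring genes, which form the outer rings and the gate of the core, 2 fell, none rose and 5 did not pass (median -0.05). Of all genes, 35.3% were called lower and 70.6% either way. Psma1 (ENSMUSG00000030751, mm10 chr7:114264606-114276118) stood at 146, 144 and 143 CPM in the control and at 121, 115 and 110 CPM in the PM2.5 libraries, with TMM-scaled CPM here and below. Every PM2.5 library lay below every control library, a log2 fold change of -0.32 (SE 0.04, edgeR adjusted p = 3.55e-05). Psma2 (ENSMUSG00000015671, chr13:14613242-14625671) had 174, 165 and 175 CPM against 152, 141 and 136 CPM. It fell 1.20-fold without overlap of the groups (-0.26, SE 0.05, edgeR adjusted p = 0.000525).

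The other alpha subunit genes stayed within the spread of the libraries or near it. Psma4 had 153, 153 and 147 CPM in the control and 146, 148 and 143 CPM with PM2.5 (adjusted p = 0.182), and Psma5 36.3, 35.0 and 35.3 against 37.1, 34.3 and 31.6 CPM (0.494). Psma3 had 41.2, 44.2 and 35.9 against 39.3, 40.3 and 37.6 CPM (0.556), and Psma7 119, 114 and 119 against 119, 123 and 116 CPM (0.549). All of these are edgeR values, and the groups overlapped for each gene. Psma6 had 137, 155 and 141 against 148, 161 and 155 CPM and did not pass (0.10, SE 0.05, edgeR adjusted p = 0.111). It passed without PBS replicate 2 (adjusted p = 0.0126), with the length offsets (0.0331) and with a replicate block (0.0311). Psma4 and Psma5 passed as lower under upper-quartile scaling (adjusted p = 0.00116 and 0.0428), and Psma4 also with library totals (0.00802).

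The 2 falling alpha genes are shown with the stretch just upstream of their start. Both hold the CCAAT box bound by the factor NF-Y. So do the alpha genes Psma3, Psma6 and Psma7, which did not pass, so the box is not particular to the falling genes. Sequences are RefSeq's for GRCm38.p6, the 250 bases before the annotated start, 5′ to 3′ on the gene's strand, with matches to CCAAT on either strand in capitals. In Psma1 (minus strand, chr7:114276117-114276366) the matches begin 126 and 98 bases before the start, the first of them on the opposite strand, and in Psma2 (plus strand, chr13:14612992-14613241) the match begins 54 bases before it.
Psma1: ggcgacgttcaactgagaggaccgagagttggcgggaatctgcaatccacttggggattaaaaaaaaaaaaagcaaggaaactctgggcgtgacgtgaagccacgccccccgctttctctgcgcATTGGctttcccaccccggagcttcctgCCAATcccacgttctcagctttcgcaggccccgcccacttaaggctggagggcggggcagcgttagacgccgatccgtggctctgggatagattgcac
Psma2: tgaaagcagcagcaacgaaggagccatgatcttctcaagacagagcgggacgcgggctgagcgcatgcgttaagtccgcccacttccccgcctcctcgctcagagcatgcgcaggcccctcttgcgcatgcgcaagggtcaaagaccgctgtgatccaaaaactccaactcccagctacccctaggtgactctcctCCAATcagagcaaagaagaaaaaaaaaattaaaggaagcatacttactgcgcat

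The 3 catalytic beta genes did not move together. Psmb6, the caspase-like subunit (ENSMUSG00000018286, chr11:70525367-70527858), had 92.6, 92.3 and 102 CPM in the control and 114, 116 and 117 CPM with PM2.5. It rose 1.20-fold (0.27, SE 0.04, edgeR adjusted p = 0.000342), the only common core gene that passed as higher with TMM. Psmb5, the chymotrypsin-like subunit and the main target of proteasome inhibitor drugs, had 59.7, 58.1 and 60.0 against 60.8, 60.3 and 62.0 CPM. Its PM2.5 libraries all lay above the control libraries, but by a log2 fold change of 0.04 (SE 0.04, edgeR adjusted p = 0.361); with offsets for gene length it stood at 0.18 and passed (adjusted p = 0.00332). Psmb7, the trypsin-like subunit, had 104, 100 and 105 against 101, 105 and 98.0 CPM (-0.02, SE 0.04, edgeR adjusted p = 0.621) and passed as lower under upper-quartile scaling (-0.13, adjusted p = 0.0125).

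Of the 4 beta genes without a peptidase site, 1 fell and 3 did not pass, beside 35.3% of all genes called lower and 70.6% either way. Psmb2 had 138, 133 and 133 CPM in the control and 129, 111 and 124 CPM in the PM2.5 libraries, the second of which was the lowest (-0.15, SE 0.05, edgeR adjusted p = 0.0272). This call was lost without PBS replicate 1, 2 or 3 or PM2.5 replicate 2 (adjusted p = 0.0844, 0.0652, 0.0520 and 0.0906), with DESeq2 (0.0604) and with the length offsets (0.160). Psmb1 had 134, 146 and 134 against 128, 138 and 125 CPM, Psmb3 132, 123 and 130 against 117, 123 and 125 CPM, and Psmb4 144, 139 and 142 against 141, 135 and 129 CPM. These 3 had adjusted p-values of 0.148, 0.135 and 0.126 in edgeR with TMM, and passed as lower with library totals (0.0164, 0.0143 and 0.00989). All 3 also passed as lower under upper-quartile scaling, the filter at 5 CPM and limma. Psmb3 also passed without PBS replicate 2 (0.0399).

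Of the 17 regulatory particle genes with a Psm name, 9 were higher, 2 lower and 6 did not pass, beside 35.2% of all genes higher and 70.6% called either way. With library totals 8 were higher and 3 lower, and with upper-quartile scaling 5 and 5. Among the 6 ATPase genes of the base, which form the ring that unfolds and threads the substrate, 4 rose and 1 fell (median 0.18). Psmc6 (ENSMUSG00000021832, chr14:45329824-45349071) had 138, 145 and 132 CPM in the control libraries and 209, 214 and 200 CPM in the PM2.5 libraries. The groups lay far apart (log2 fold change 0.59, SE 0.04, edgeR adjusted p = 5.61e-07), and it passed in each of the 14 alternatives. Psmc4 had 142, 144 and 145 against 168, 171 and 163 CPM (0.22, SE 0.03, edgeR adjusted p = 0.000146) and Psmc2 had 146, 152 and 142 against 173, 168 and 164 CPM (0.20, SE 0.04, edgeR adjusted p = 0.000692).

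The ATPases did not keep a common step, although they join the ring in equal numbers. Psmc5 had 149, 143 and 152 against 167, 171 and 160 CPM (0.17, SE 0.04, edgeR adjusted p = 0.00283), and Psmc3 158, 159 and 162 against 169, 164 and 163 CPM (0.05, SE 0.03, edgeR adjusted p = 0.163). Psmc1 fell, from 191, 173 and 172 to 158, 155 and 151 CPM (-0.21, SE 0.04, edgeR adjusted p = 0.00170). Under upper-quartile scaling the calls of Psmc2 and Psmc5 were lost (adjusted p = 0.0504 and 0.230).

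The upstream stretches of the base ATPase gene and the catalytic gene that rose most are shown because they hold the letters TGANNNNGC, the core of the antioxidant response element, which the factors NFE2L1 and NFE2L2 bind. The same letters also stand upstream of Psmc2, which rose by less, and of Psmb5, which did not pass. Source and orientation are as above, and capitals mark the matches on either strand. In Psmc6 (plus strand, chr14:45329574-45329823) the matches begin 241 and 227 bases before the start, the second of them on the opposite strand, and in Psmb6 (plus strand, chr11:70525107-70525356) the match begins 9 bases before RefSeq's start, which lies just upstream of the gene start in the deposited table.
Psmc6: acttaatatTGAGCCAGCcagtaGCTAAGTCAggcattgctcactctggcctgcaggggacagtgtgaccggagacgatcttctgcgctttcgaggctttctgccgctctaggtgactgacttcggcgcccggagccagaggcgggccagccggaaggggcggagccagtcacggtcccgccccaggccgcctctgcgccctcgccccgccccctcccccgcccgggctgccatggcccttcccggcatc
Psmb6: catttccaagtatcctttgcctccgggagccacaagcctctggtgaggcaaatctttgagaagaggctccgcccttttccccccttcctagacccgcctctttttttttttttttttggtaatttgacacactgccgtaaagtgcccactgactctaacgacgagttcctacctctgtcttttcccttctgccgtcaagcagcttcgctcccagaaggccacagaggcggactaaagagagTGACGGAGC

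Such letters are common. RefSeq start windows of 250 bases before and 50 after the start were found for 39 members, 42 windows in all. TGANNNNGC stood on either strand in 24 of them (57.1%), against 41.3% of all 32851 windows in the table. CCAAT stood in 14 (33.3%, against 37.4%), and TGATGNAAN, the element bound by ATF4 with its partners, in 1 (2.38%, against 3.95%). The 3 patterns may overlap each other. Of the 21 tested members with TGANNNNGC 8 rose and 2 fell (median 0.05), and of the 17 without it 9 rose and 4 fell (median 0.17). Of the 13 with CCAAT 4 rose and 4 fell (median -0.05), and of the 25 without it 13 rose and 2 fell (median 0.15). These are descriptions of letters in a window, with no test.

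Of the 3 other subunits of the base with a Psm name, Psmd4, a receptor for ubiquitin chains, rose from 127, 124 and 126 to 147, 147 and 151 CPM (0.24, SE 0.03, edgeR adjusted p = 5.62e-05). The scaffold genes Psmd1 and Psmd2, which carry docking sites of the base, did not pass. Psmd1 had 262, 262 and 257 against 271, 270 and 264 CPM (0.04, SE 0.03, edgeR adjusted p = 0.194), and Psmd2 had 346, 332 and 334 against 367, 359 and 343 CPM (0.08, SE 0.03, edgeR adjusted p = 0.0570). Psmd2 passed when PM2.5 replicate 3 was left out (adjusted p = 0.0165), and Psmd1 turned to -0.07 under upper-quartile scaling (0.0477).

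Of the 8 lid genes with a Psm name, 4 rose, 1 fell and 3 did not pass (median 0.12), a called share below the 70.6% of all genes. Psmd8 (ENSMUSG00000030591, chr7:29174188-29180701), a lid subunit that joins late in assembly, rose 1.38-fold from 278, 285 and 288 to 376, 390 and 407 CPM (0.46, SE 0.04, edgeR adjusted p = 8.25e-07) and passed in all 14 alternatives. Psmd14, the metalloprotease that cuts ubiquitin chains from the substrate, rose from 118, 122 and 115 to 144, 136 and 137 CPM (0.23, SE 0.04, edgeR adjusted p = 0.000243). Psmd12 rose from 122, 122 and 115 to 134, 133 and 130 CPM (0.15, SE 0.04, edgeR adjusted p = 0.00348), a call lost under upper-quartile scaling (0.343).

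Psmd11, a lid subunit known to promote assembly of the 26S particle, was the most variable of the called lid genes. It had 109, 94.7 and 84.9 CPM in the control and 111, 136 and 149 CPM in the PM2.5 group, so the groups were separated by 1 close pair of libraries (0.46, SE 0.15, edgeR adjusted p = 0.0486). The call was lost in 10 of 14 alternatives, among them leaving out PBS replicate 2 or 3 or PM2.5 replicate 2 or 3 (adjusted p = 0.133, 0.129, 0.125 and 0.105). Psmd13 fell from 133, 116 and 119 to 110, 107 and 109 CPM (-0.18, SE 0.05, edgeR adjusted p = 0.0108).

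The remaining lid genes overlapped between the groups. Psmd3 had 206, 193 and 207 against 199, 204 and 240 CPM, with PM2.5 replicate 3 above the rest (0.08, SE 0.08, edgeR adjusted p = 0.347). Psmd7, the partner of Psmd14, had 189, 188 and 185 against 196, 188 and 186 CPM (adjusted p = 0.603), and Psmd6 had 100, 98.9 and 95.6 against 97.03, 96.3 and 91.3 CPM (adjusted p = 0.271), both in edgeR. Under upper-quartile scaling both passed as lower (Psmd7 at -0.09, adjusted p = 0.0245, and Psmd6 at -0.16, 0.00344). Psmd6 also passed as lower with library totals (adjusted p = 0.0208), the filter at 5 CPM (0.0191) and limma (0.0207).

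All 4 activator genes rose (median 0.50), the group of members with the largest median change. Of all genes, 35.2% were called higher and 70.6% either way. Psme3 (ENSMUSG00000078652, chr11:101316213-101323537), the nuclear PA28 gamma, had 300, 306 and 303 CPM in the control and 409, 413 and 409 CPM with PM2.5. The libraries of each group agreed closely, and the 1.36-fold rise had the smallest p of all members (0.44, SE 0.03, edgeR adjusted p = 1.33e-07). Psme1, PA28 alpha, rose 1.47-fold from 86.2, 92.9 and 90.5 to 133, 133 and 131 CPM (0.56, SE 0.04, edgeR adjusted p = 2.83e-07). Psme2, its partner PA28 beta, rose from 23.0, 23.8 and 19.6 to 42.7, 42.2 and 40.9 CPM (0.92, SE 0.07, edgeR adjusted p = 1.11e-06), the largest change of any member. Psme4, which encodes the cap PA200, rose from 168, 183 and 163 to 194, 192 and 189 CPM (0.16, SE 0.04, edgeR adjusted p = 0.00619). This call was lost with library totals (0.0526), upper-quartile scaling (0.3001), the filter at 5 CPM (0.0672) and limma (0.0797).

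The split of reads between Psme2 and its intronless copy Psme2b is uncertain. In GENCODE M21, 59.3% of the 50-base stretches of the Psme2 transcript also occur in transcripts of other genes, chiefly Psme2b, and 69.3% of those of Psme2b. Psme2b itself had 79.6, 77.3 and 75.8 CPM in the control and 108, 116 and 106 CPM with PM2.5 (0.50, SE 0.04, edgeR adjusted p = 2.02e-06). Summed over the pair, the level went from 99.7 ± 3.79 to 152 ± 5.43 CPM (SD, n = 3), 1.52-fold higher. Both genes, and so their sum, lay higher in every PM2.5 library.

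The inhibitor and adaptor gene Psmf1 (PI31) had 39.7, 47.2 and 52.5 CPM in the control and 52.7, 41.0 and 50.3 CPM with PM2.5, without a difference beyond the spread (0.05, SE 0.14, edgeR adjusted p = 0.778). Among the chaperones of core assembly, Psmg1 rose 1.37-fold from 17.6, 16.8 and 16.0 to 22.7, 22.7 and 23.7 CPM (0.46, SE 0.06, edgeR adjusted p = 0.000101). Psmg2, with which it forms a pair that assembles the alpha ring, had 31.5, 31.6 and 30.9 against 30.9, 34.1 and 30.5 CPM (0.02, SE 0.06, edgeR adjusted p = 0.738). The 2 partners were thus called differently, and the difference between them was not tested. Psmg3 had 18.3, 15.9 and 16.7 against 20.5, 20.9 and 18.7 CPM (0.24, SE 0.08, edgeR adjusted p = 0.0172), and its partner Psmg4 had 7.47, 8.06 and 8.01 against 8.98, 8.03 and 7.41 CPM (adjusted p = 0.635 in edgeR). The call of Psmg3 was lost without PBS replicate 2, PM2.5 replicate 1 or PM2.5 replicate 2 (adjusted p = 0.0619, 0.0517 and 0.0568). It was also lost with library totals (0.0641), upper-quartile scaling (0.156), the filter at 5 CPM (0.0652) and limma (0.0620).

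Of the 3 chaperones of the regulatory particle base, 2 fell, beside 35.3% of all genes called lower and 70.6% either way. Psmd5 had 53.3, 54.1 and 39.5 CPM in the control and 39.2, 36.7 and 33.8 CPM with PM2.5, and PBS replicate 3 lay close to the PM2.5 libraries (-0.42, SE 0.14, edgeR adjusted p = 0.0319). The call was lost without PBS replicate 1 or 2 or PM2.5 replicate 2 or 3 (adjusted p = 0.0889, 0.0941, 0.0952 and 0.0973) and with no filter on low counts (0.0789). Psmd10, also known as the oncoprotein gankyrin, had 28.0, 29.0 and 28.1 against 25.8, 26.9 and 24.0 CPM (-0.15, SE 0.06, edgeR adjusted p = 0.0493), a call lost in 9 of 14 alternatives. These include leaving out PBS replicate 1, 2 or 3 or PM2.5 replicate 1 or 3 (adjusted p = 0.0731, 0.108, 0.0728, 0.0905 and 0.195) and DESeq2 (0.207). Psmd9 had 31.2, 29.5 and 32.2 against 33.4, 33.8 and 31.6 CPM (adjusted p = 0.186 in edgeR).

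The tissue-specific subunits were near or at 0. Psmb11, the catalytic subunit of thymic cortical epithelium, had 0 counts in every library, which allows at most 0.110 to 0.154 CPM per library for a limit of 3 counts, covering counting error only. Psma8, the alpha subunit of the testis, had 6, 2 and 6 counts in the control and 2, 5 and 2 with PM2.5 and was not tested. Psmc3ip, which the symbol rule takes but which encodes a partner of meiotic recombinases and no proteasome subunit, had 11.4, 12.2 and 11.1 against 9.69, 10.4 and 10.3 CPM (-0.19, SE 0.08, edgeR adjusted p = 0.0561). It passed as lower with library totals (adjusted p = 0.0150), upper-quartile scaling (0.00633), the filter at 5 CPM (0.0146) and limma (0.00786). Without Psmc3ip and Psme2b, 16 of 43 members rose and 7 fell.

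Whether the groups overlap can be asked without a statistical model. It was asked here in TMM-scaled CPM, so the counts in each direction depend on that scaling, as the calls do. They did not overlap for 28 of the 45 members (62.2%), against 74.9% of all genes tested. In 20 members PM2.5 lay above and in 8 below, against 37.4% of all genes in each direction. The spread between replicates was small: the median coefficient of variation of CPM was 3.29% in the control and 3.47% in the PM2.5 group over the members, and 5.58% and 4.94% over all genes tested. The 2 sets were not matched for level, with a median control FPKM of 31.2 for the members and 5.33 for all genes tested.

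Levels per length can be compared between subunits only with care. In deposited FPKM the 14 core genes of the control ran from 6.61 (Psma3) to 185 (Psma2), with a median of 52.7, and the 17 regulatory genes from 9.51 (Psmd11) to 131 (Psmd8), with a median of 33.5. The length behind the FPKM, recovered from counts and FPKM, was more than 1.5 times that of GENCODE's principal transcript for 30 members, and differs between genes: 6255 against 2846 bases for Psma3 and 944 against 2911 bases for Psma2. With the principal transcript as the length, the core genes ran from 14.2 (Psma3) to 167 (Psmb3) CPM per kilobase in the control, so the order among subunits depends on the annotation, although Psma3 stayed the lowest. In FPKM the lowest and the highest gene of each particle were the same in the PM2.5 group, at 6.10 and 148 for the core and 12.5 and 173 for the regulatory particle.

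**Figure D4:**
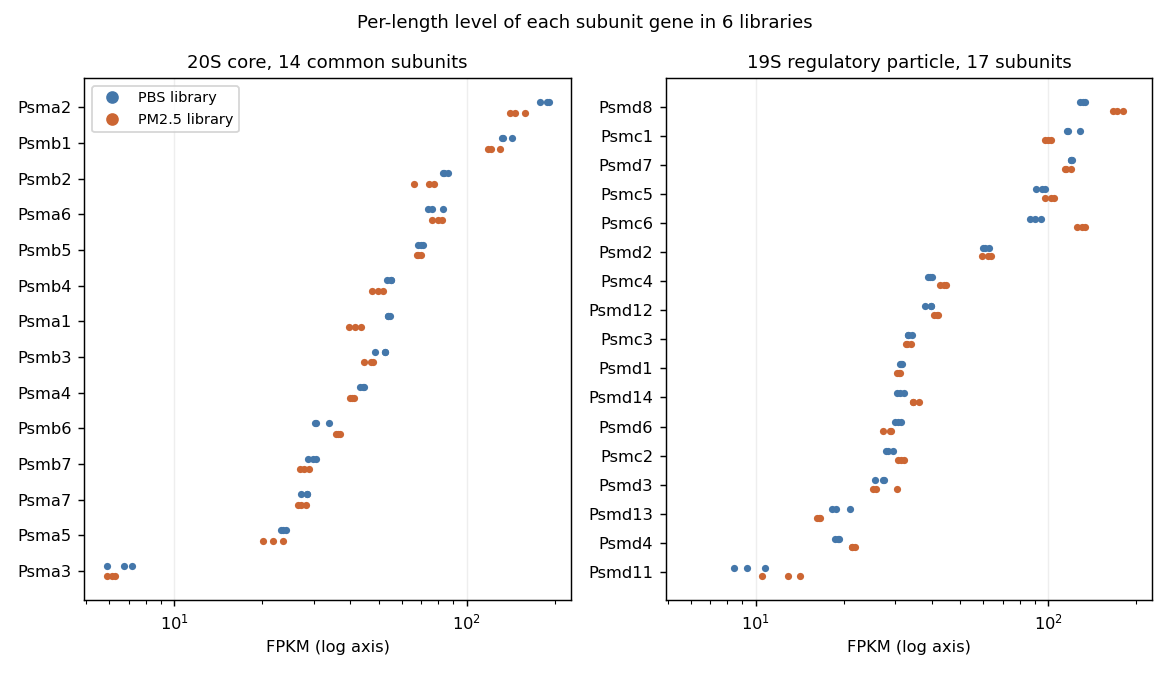
FPKM of each subunit gene on a log axis in the 3 PBS libraries (blue) and 3 PM2.5 libraries (orange), for the 14 common core genes (left) and the 17 regulatory particle genes (right), in order of the control mean. FPKM is scaled by library totals, not by TMM; the order spans from Psma3 to Psma2 and from Psmd11 to Psmd8 in both groups.

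Beside these, the 3 inducible catalytic genes fell together, opposite to the PA28 genes Psme1 and Psme2, which interferon also induces. Psmb8 went from 110, 104 and 110 to 53.7, 61.1 and 56.0 CPM (-0.92, SE 0.05, edgeR adjusted p = 8.39e-08), Psmb10 from 42.4, 39.0 and 44.7 to 23.6, 24.3 and 21.0 CPM (-0.87, SE 0.07, edgeR adjusted p = 1.85e-06) and Psmb9 from 17.5, 20.9 and 25.6 to 10.6, 12.8 and 11.8 CPM (-0.86, SE 0.14, edgeR adjusted p = 0.00102). Within a library the ratio to the standard subunit that each replaces does not depend on scaling. Its size in FPKM rests on the deposited lengths (3848 bases for Psmb8, 871 for Psmb5), but its change between groups does not. In CPM, not divided by length, Psmb8 stood above Psmb5 in the control (means 108 and 59.3). Psmb8 over Psmb5 was 0.418, 0.404 and 0.415 in the control and 0.200, 0.229 and 0.204 in the PM2.5 libraries, in FPKM. Psmb9 over Psmb6 was 0.0933, 0.112 and 0.123 against 0.0461, 0.0548 and 0.0498, and Psmb10 over Psmb7 was 1.14, 1.09 and 1.19 against 0.654, 0.645 and 0.600. The mean log2 ratios fell by 0.97, 1.12 and 0.85. In an exact two-sided permutation test each had p = 0.1, also after adjustment over the 3 ratios, the smallest that 3 against 3 libraries allow. The groups did not overlap for any of the 3.

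**Figure D5:**
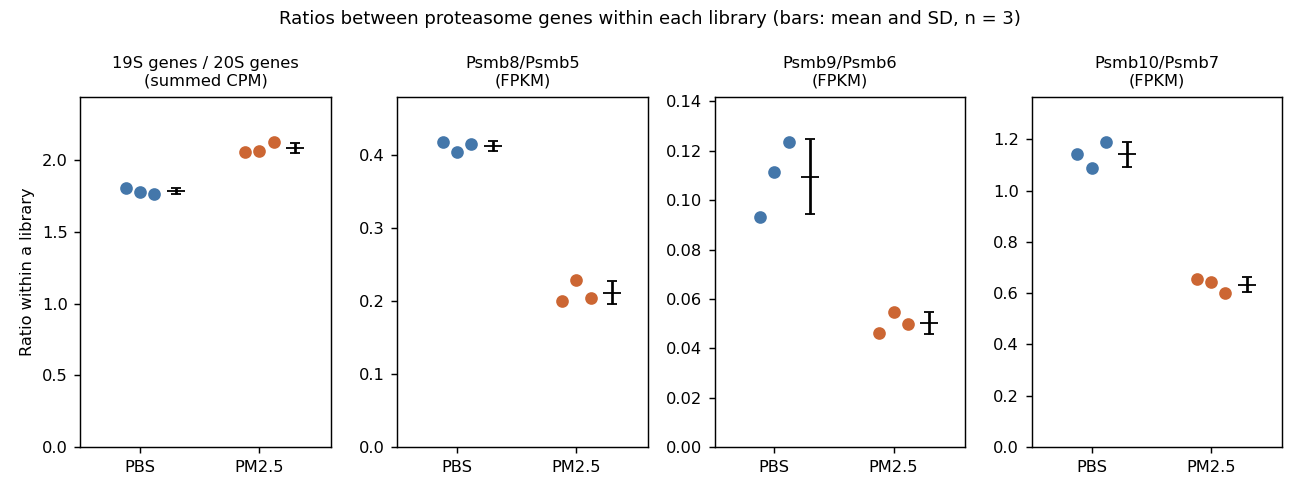
Ratios within each library: summed CPM of 17 regulatory particle genes over 14 core genes, and FPKM of each inducible catalytic gene over the standard gene it replaces (y axes from 0). Points are libraries, bars the mean and SD (n = 3); the first ratio is higher and the other 3 are lower in every PM2.5 library.

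Partners of the proteasome that carry no Psm name mostly rose, 6 of 10 found, with 1 fall (median 0.23), a share called near the 70.6% of all genes. The largest was that of Akirin2, an importer of proteasomes into the nucleus, from 42.0 ± 1.73 to 62.3 ± 2.35 CPM (0.57, SE 0.05, edgeR adjusted p = 2.83e-06). The associated thioredoxin-like gene Txnl1 (0.45), the deubiquitinase gene Uchl5 (0.40) and the ubiquitin receptor gene Adrm1 (0.33) rose as well. Pomp, which matures the core, fell from 92.7 ± 7.63 to 79.8 ± 4.79 CPM (-0.22, SE 0.07, edgeR adjusted p = 0.0182), a call lost without PBS replicate 1 or 2 or PM2.5 replicate 3 (adjusted p = 0.0590, 0.0586 and 0.0563). The lid gene Shfm1 did not pass (-0.16, adjusted p = 0.104 in edgeR) but passed as lower without PM2.5 replicate 2 (0.00121), with library totals (0.0349), upper-quartile scaling (0.0177), the filter at 5 CPM (0.0369) and limma (0.0386).

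All 8 listed regulators of proteasome genes passed, 6 of them upward, beside 70.6% of all genes called and 35.2% called higher. NFE2L1 is held at the endoplasmic reticulum and, when the proteasome is short, is pulled out by the ATPase p97, trimmed by NGLY1 and cut by DDI2 to reach proteasome promoters. Nfe2l1 (chr11:96817414-96829968) rose 3.36-fold, from 40.4, 40.2 and 38.8 to 138, 120 and 144 CPM (1.75, SE 0.07, edgeR adjusted p = 2.54e-08). The protease gene Ddi2 fell from 220 ± 3.29 to 148 ± 0.702 CPM (-0.57, SE 0.03, edgeR adjusted p = 3.92e-08), and Bach1, a repressor at antioxidant elements, fell from 23.7 ± 3.98 to 9.36 ± 0.0514 CPM (-1.34, SE 0.12, edgeR adjusted p = 5.26e-06). Nfe2l2, the relative of Nfe2l1 that answers to oxidants, rose by less (0.35, SE 0.04).

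Upstream of the proteasome, the ubiquitin genes Ubb (0.33) and Rps27a (0.21) rose. The call of Rps27a was lost with library totals (adjusted p = 0.0521 in edgeR), upper-quartile scaling, the filter at 5 CPM and limma. The 2 ubiquitin-activating enzymes moved apart: Uba1 fell from 1864, 1814 and 1736 to 1045, 1026 and 1010 CPM (-0.81, SE 0.03, edgeR adjusted p = 4.15e-09), and Uba6 rose from 55.2, 53.4 and 52.6 to 91.8, 96.8 and 96.0 CPM (0.82, SE 0.04, edgeR adjusted p = 3.01e-08). Of 9 genes for shuttles that bring ubiquitylated proteins to the proteasome and for p97 with its cofactors, 6 rose and none fell with TMM (median 0.35), a called share near the 70.6% of all genes, of which 35.2% were called higher. They include Ubqln4 (0.76), Rad23b (0.62) and the p97 cofactor Nsfl1c (0.42), while Vcp, the gene of p97, had 336, 342 and 323 against 345, 346 and 327 CPM (0.03, SE 0.03, edgeR adjusted p = 0.522) and turned to -0.09 under upper-quartile scaling (0.0428).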

How the data were processed

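RNA-seq of mRNA was analysed from the table deposited by the authors, which holds raw counts and FPKM per Ensembl gene for 6 libraries, per the file headers. The submitters' processing notes name TopHat2 2.0.6 and mm10. The sources used here give no counting program, annotation or strand setting. FPKM deposited by the authors equal counts over library total and 1 length per gene. Of the members, 15 share more than 10% of their 50-base stretches with other GENCODE M21 transcripts and 10 overlap an exon on the opposite strand, so their counts can share reads.

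Genes passing filterByExpr (minimum count 10, minimum total 15) were tested in edgeR 4.0.16 (R 4.3.3; TMM, robust glmQLFit, glmQLFTest, two-sided) over all 6 libraries, with Benjamini-Hochberg adjustment over 12967 genes and a threshold of 0.05; 21778 genes were left out. SE was taken as the size of the log2 fold change divided by the root of F. The script was tested on simulated counts with known changes in a small share of the genes. Scaling when most genes change was not tried in this way. Alternatives were DESeq2 1.42.0, library totals, upper-quartile scaling, no filter, a mean of 5 CPM, limma 3.58.1 on log2(FPKM + 1), length offsets (lowess, span 0.3), a replicate block and leaving out each library. limma on log2(FPKM + 0.1) was run for medians only. Ratios used exact permutation tests (SciPy 1.17.1).

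Members and lists were chosen with earlier results of these data known. Named were, per role, the 3 members with the smallest adjusted p, the largest change, the catalytic genes, and every member not called, contrary or filtered out, plus up to 3 genes per other list. Other list genes were named after their values were seen. All totals were 19511561 counts or more. Paaf1 was not found in the table. Some genes of the ubiquitin list are not reported here.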

Additional observations from a re-analysis of the deposited data

How the results depend on the processing

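Of the 24 members called, 15 kept their call and direction in all 14 alternatives (Psma1, Psma2, Psmb6, Psmc1, Psmc4, Psmc6, Psmd4, Psmd8, Psmd13, Psmd14, Psme1, Psme2, Psme2b, Psme3 and Psmg1) and 9 lost the call in at least 1. Calls of small changes turn on the scaling and on the filter applied before it. TMM with the main filter gave 17 members higher and 7 lower. Against this, library totals gave 13 lower, upper-quartile scaling 11 higher and 17 lower, TMM with the filter at 5 CPM 13 lower and limma on log2(FPKM + 1) 13 lower. In the last 2 the median over all genes shifted by -0.07 and -0.06. The median over the members turned from 0.05 to -0.012 with library totals, -0.059 with upper-quartile scaling, -0.014 with the filter at 5 CPM, -0.013 with limma on log2(FPKM + 1) and -0.015 with limma on log2(FPKM + 0.1). Upper-quartile scaling also turned Psmd1 to -0.068, Psmd7 to -0.092 and Vcp to -0.086. Leaving out 1 library gave 15 to 17 members higher and 4 to 6 lower, the 4 without PBS replicate 1. The partner, inducible catalytic, regulator, ubiquitin and shuttle lists had 10, 3, 8, 6 and 9 genes tested. Together they went from 22 higher and 7 lower to 19 to 22 and 6 to 9 over the alternatives. The 3 inducible catalytic genes are among the 7 lower. Of all genes, 35.2% were called higher and 35.3% lower in the main fit. Without 1 library the log2 changes of the ratios lay between -1.03 and -0.93 (Psmb8/Psmb5), -1.23 and -1.03 (Psmb9/Psmb6) and -0.88 and -0.81 (Psmb10/Psmb7). The replicate numbers gave no clear pairing of the libraries, with correlations of deviations of 0.0134, 0.00720 and 0.0450. Replicates 2 and 3 of the control correlated best with the PM2.5 library of their own number, and replicate 1 with PM2.5 replicate 2. The replicate block gave 18 members higher and 6 lower. At these depths the members tested had at least 1141 counts over the 6 libraries. Over all genes with enough counts, pairs of replicates differed by more than counting noise (chi-square per degree of freedom 7.57 to 9.89). This was not computed for the members alone, so it does not say what limits their calls.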

Other observations

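Zfand2a, a stress-induced proteasome partner from the list of partners, had 27.6, 27.9 and 26.5 CPM in the control libraries and 14.5, 44.0 and 15.4 CPM in the PM2.5 libraries. PM2.5 replicate 2 thus lay above every control library and the other PM2.5 libraries below them. With all libraries it did not pass (log2 fold change -0.15, SE 0.53, edgeR adjusted p = 0.814), and without PM2.5 replicate 2 it passed as lower (-0.87, adjusted p = 2.98e-06). PM2.5 replicate 2 was also the lowest PM2.5 library for the core gene Psmb2, at 111 against 129 and 124 CPM.

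In PM2.5 replicate 3 the lid genes Psmd3 (240 CPM, against 199 and 204 in the other PM2.5 libraries) and Psmd11 (149, against 111 and 136 CPM) were at their highest.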
